A study of Mus musculus with 6 samples.

Results

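Fatty acid synthesis and desaturation was followed through 9 genes that encode the enzymes from citrate to long unsaturated fatty acids: Acly, Acaca, Fasn, Elovl6, Elovl5, Scd1, Scd2, Fads1 and Fads2. They were taken by their symbols from tables that list 17006 genes, and all 9 were found. The cells were neural stem cells in primary culture. They came from the subventricular zone of C57BL/6 mice, the stem cell layer that lines the lateral ventricles of the brain. The young group came from mice of 2 months and the aged group from mice of 15 to 18 months, with 3 bulk RNA sequencing libraries in each. No transgene or treatment is given for either group, and both were cultured in proliferation medium until RNA extraction. Tissue of 5 mice was pooled for dissociation. The labels do not say whether the 3 libraries of a group came from separate pools or cultures, so p-values measure only the spread between these libraries, which may be technical.

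New fatty acids are built in the cytosol. ATP citrate lyase (Acly) splits citrate to acetyl-CoA, acetyl-CoA carboxylase (Acaca) turns this into malonyl-CoA in the committed step, and fatty acid synthase (Fasn) joins the units into palmitate. Elongases of the ELOVL family lengthen the chain, stearoyl-CoA desaturases (Scd1, Scd2) place the first double bond, and the front-end desaturases Fads1 and Fads2 act on polyunsaturated chains. The genes are known targets of the transcription factor SREBP-1, which Srebf1 encodes, and proliferating neural stem cells are known to depend on Fasn for membrane lipids.

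Expression was given as FPKM, a count of sequenced fragments divided by transcript length and library size. Steps in the low values put the depth at an estimated 5250000 to 5390000 counted reads per library. Markers of neural stem and progenitor cells (Sox2, Nes, Vim, Fabp7, Slc1a3, Egfr and Olig2) summed to 5548 to 5721 FPKM in the young group, against 5481 to 5657 FPKM in the aged group. Fabp7 and Vim made up most of this sum, which hides opposite directions. Vim (means of 1659 and 1532 FPKM, limma adjusted p = 0.0608) and Nes were lower in all aged libraries. Sox2, Slc1a3 and Olig2 were higher in all of them, Fabp7 and Egfr overlapped, and 0 of the 7 passed the test. Of other cell types, fibroblast and pericyte markers summed to 0.35 to 0.58 FPKM in young libraries, against 2.68 to 3.72 FPKM in aged ones. Of the 5 such genes in the tables, only Col1a1 had a mean of 1 FPKM or more and was tested, and it passed. Col1a2 was at 0 to 0.04 FPKM in the young group, against 0.54 to 0.75 FPKM in the aged group. Col3a1 was at 0 to 0.06 and at 0.10 to 0.16 FPKM. Dcn of that list was at 0 in all libraries but 1, and Pdgfrb stayed at 0.03 FPKM or less. The 5 neuron and neuroblast markers summed to 12.8 to 14.2 and 16.3 to 19.3 FPKM, and the 7 myelin markers to 74.3 to 81.7 and 79.9 to 84.8 FPKM. Tubb3, Snap25 and Dcx were higher in all aged libraries, while Rbfox3 and Syt1 overlapped. Tubb3 had means of 9.37 and 12.1 FPKM (limma adjusted p = 0.140) and Snap25 of 2.97 and 4.56 FPKM (limma adjusted p = 0.181). Ependyma and choroid plexus markers summed to 12.3 to 13.7 FPKM in young libraries, against 10.4 to 13.9 FPKM in aged ones. Microglial and endothelial markers stayed at 4.0 and 1.23 FPKM or less in sum. Adipoq, the only adipocyte marker in the tables, stayed at 0.15 FPKM or less. The part of such cells in the differences below was not tested, and in bulk RNA fewer cells of a type and less RNA per cell cannot be told apart.

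None of the 9 genes passed the test between the ages. By limma on log2(FPKM + 1), with Benjamini-Hochberg adjustment over the 11912 genes whose mean reached 1 FPKM, 0 of the 9 had an adjusted p under 0.05, where 0.722% of all tested genes did. The 4 desaturase genes lay 1.07 to 1.10 times higher in aged than in young libraries, and the values of the ages did not overlap for any of the 4. Acly did not overlap either, with lower aged values. Of all tested genes, 17.6% did not overlap, 8.98% with higher and 8.58% with lower aged values. The 3 genes of synthesis lay at 0.96 to 0.98 of the young mean, and the 2 elongases at 1.00 and 1.01. At an unadjusted p under 0.05 there were 4 of 9 genes, the 4 desaturases, all higher in aged libraries. Of all tested genes, 11.9% had such a p and 6.3% had it with the higher value in aged libraries. The median log2 change of the 9 was 0.013, beside 0.0027 over all tested genes. Differences between the groups of enzymes in their response to age were not tested.

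**Figure D1:**
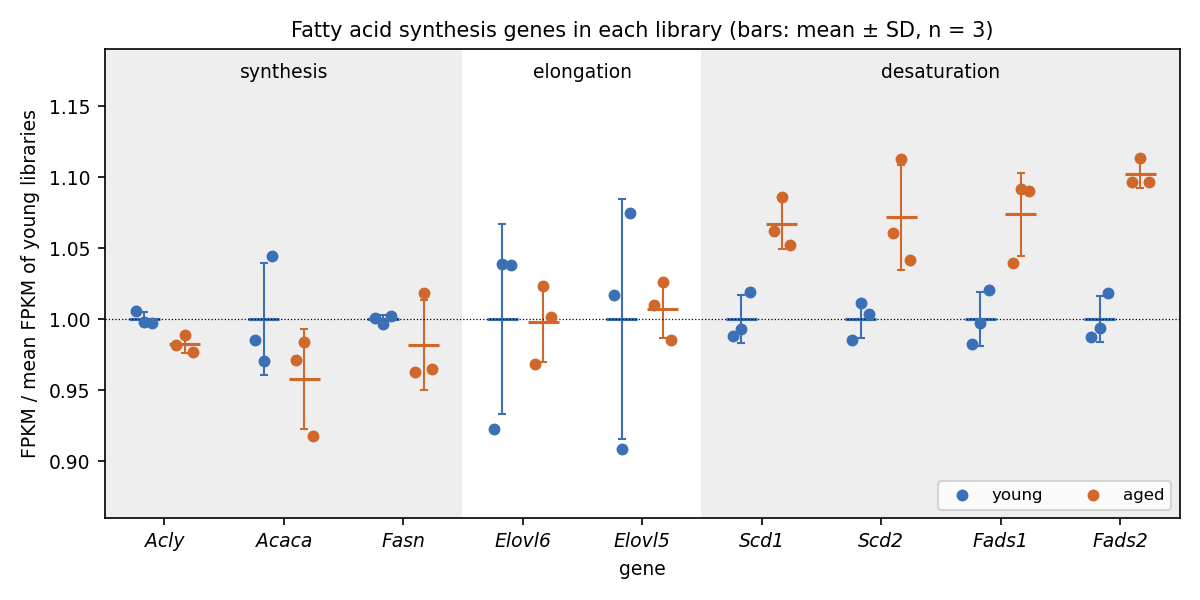
FPKM of each gene divided by the mean of its young libraries, for 3 young and 3 aged libraries (points), with the mean and SD of each group. The aged points of Scd1, Scd2, Fads1 and Fads2 lie above all young points and those of Acly just below them, while those of Acaca, Fasn, Elovl6 and Elovl5 overlap the young ones.

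The level of the transcripts, compared per length, covered a range from 23.6 to 872.5 FPKM in the means of a group. Scd2 was the most abundant of the 9 with a mean of 843.3 FPKM over the 6 libraries, rank 62 of 17006 genes. It was followed by Fads2 (297.1 FPKM), Fads1 (170.9 FPKM), Fasn (147.0 FPKM), Scd1 (120.6 FPKM), Acly (101.2 FPKM), Elovl5 (88.8 FPKM), Elovl6 (29.2 FPKM) and Acaca (24.1 FPKM). The ranges of the 6 libraries did not overlap between any neighbours in this order. Scd2 alone made up 45.5% to 47.1% of the summed FPKM of the 9 genes.

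Acly (gene 104112, mm10 chromosome 11, 100476352 to 100528000) supplies the acetyl-CoA. It was at 102.66, 101.87 and 101.81 FPKM in the young libraries and at 100.22, 100.98 and 99.76 FPKM in the aged ones. The aged values lay just below the young ones with no overlap, but the means, 102.1 ± 0.474 and 100.3 ± 0.616 FPKM (SD, n = 3 each), were close together. The log2 change was -0.025 ± 0.030 (SE; limma adjusted p = 0.820). After rescaling to TPM, which sets each library to the same sum, the groups of Acly overlapped. Read sampling alone would give a coefficient of variation of about 2.05% at the depth of Acly, more than the 0.465% and 0.614% seen in the groups.

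Acaca (gene 107476, chromosome 11, 84129635 to 84401651) encodes the carboxylase of the cytosol. Its values were 24.28, 23.92 and 25.75 FPKM in the young group, against 23.94, 24.26 and 22.62 FPKM in the aged group, and the groups overlapped. The means were 24.65 ± 0.969 and 23.6 ± 0.869 FPKM (SD, n = 3 each), and the log2 change was -0.060 ± 0.053 (SE; limma adjusted p = 0.736). The level of Acaca is uncertain, because 55.4% of the windows of 50 bases in its transcript also occur in Gm5182, another gene of the GENCODE M21 annotation, and the counting could have split such reads. For Elovl6 the share of windows found in another gene was 4.40%, and for Fasn, Acly, Elovl5 and Fads1 it was 0. Acacb, the carboxylase of the mitochondrial surface, lay at 0.08 to 0.22 FPKM over the 6 libraries.

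Fasn (gene 14104, chromosome 11, 120805958 to 120825166) makes palmitate on a single large polypeptide. It was at 148.48, 147.88 and 148.72 FPKM in young libraries, which were nearly equal, and at 142.85, 151.08 and 143.09 FPKM in aged ones. Aged library 2 lay above all young libraries and the other aged libraries below them. The means were 148.4 ± 0.433 and 145.7 ± 4.68 FPKM (SD, n = 3 each), the log2 change was -0.027 ± 0.033 (SE) and the limma adjusted p 0.828. The unadjusted 95% interval of the aged to young fold went from 0.932 to 1.03 for Fasn and from 0.936 to 1.03 for Acly.

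The elongases did not separate the ages. Elovl6 (gene 170439, chromosome 3, 129532386 to 129638495) extends palmitate to stearate and lay at 27.01, 30.41 and 30.38 FPKM in the young group, against 28.34, 29.95 and 29.31 FPKM in the aged group. Elovl5 (gene 68801, chromosome 9, 77917365 to 77984519) extends polyunsaturated chains and lay at 89.98, 80.38 and 95.12 FPKM in the young group, against 89.38, 90.78 and 87.17 FPKM in the aged group. For both genes all aged values lay inside the range of the young ones. The young libraries of Elovl5 had a coefficient of variation of 8.45%, against about 2.76% from read sampling alone and 2.04% in the aged group. Their log2 changes were -0.0015 ± 0.058 and 0.013 ± 0.059 (SE), with limma adjusted p-values of 0.995 and 0.961. The unadjusted 95% intervals of the fold, 0.911 to 1.10 for Elovl6 and 0.920 to 1.11 for Elovl5, contain the folds of Scd1, Scd2 and Fads1. The log2 change of Fads2, 0.14, lies within the interval of Elovl5 and beyond that of Elovl6, which ends at 0.13.

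Scd1 and Scd2 encode stearoyl-CoA desaturases, which make oleate and palmitoleate from saturated chains. Scd2 (gene 20250, chromosome 19, 44293676 to 44306864), known as the main form in brain, was at 801.96, 823.35 and 817.05 FPKM in young libraries and 863.60, 905.87 and 847.95 FPKM in the aged group. All aged values were above all young ones, and aged library 2 was the highest. The means were 814.1 ± 11.0 and 872.5 ± 30.0 FPKM (SD, n = 3 each), and the log2 change was 0.099 ± 0.030 (SE; limma adjusted p = 0.225, unadjusted p = 0.00904). After quantile normalization, which forces the same distribution of values on each library, the log2 change of Scd2 was 0.040 and its groups overlapped.

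Scd1 (gene 20249, chromosome 19, 44394450 to 44407709), known as the form of liver and adipose tissue, was at 115.28, 115.87 and 118.97 FPKM in the young group, against 123.98, 126.72 and 122.78 FPKM in the aged group. Again all aged values lay above the young ones, with means of 116.7 ± 1.98 and 124.5 ± 2.02 FPKM (SD, n = 3 each). The log2 change was 0.092 ± 0.032 (SE) and the limma adjusted p 0.293 (unadjusted p = 0.0185). Of the windows of 50 bases, 4.66% of Scd1 and 4.01% of Scd2 also occur in another gene, mostly in a gene of the same family. The ratio of Scd2 to Scd1 was 6.98 ± 0.120 in young and 7.01 ± 0.126 in aged libraries (SD, n = 3 each), and its groups overlapped.

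Fads1 and Fads2 encode the desaturases through which linoleate and alpha-linolenate are turned into arachidonate and the omega-3 fatty acids of neural membranes. Fads2 (gene 56473, chromosome 19, 10062765 to 10101503), the entry enzyme of that route, was at 279.06, 280.91 and 287.87 FPKM in young libraries and 309.91, 314.71 and 309.89 FPKM in the aged group. The gap between the highest young and the lowest aged library was wider than the spread within either group. The means were 282.6 ± 4.65 and 311.5 ± 2.78 FPKM (SD, n = 3 each), a fold of 1.10 with an unadjusted 95% interval from 1.06 to 1.15. The log2 change was 0.14 ± 0.027 (SE), and Fads2 had the smallest p of the 9 genes (limma unadjusted p = 0.000614, rank 116 of all tested genes, adjusted p = 0.0631). Over the 16 other fits its adjusted p ran from 0.0506 to 0.320, so it passed 0.05 in none of them.

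Fads1 (gene 76267, chromosome 19, 10182877 to 10196874), which acts after Fads2, was at 161.99, 164.43 and 168.20 FPKM in the young group, against 171.42, 179.93 and 179.72 FPKM in the aged group. The groups did not overlap, with means of 164.9 ± 3.13 and 177.0 ± 4.85 FPKM (SD, n = 3 each). The log2 change was 0.10 ± 0.033 (SE; limma adjusted p = 0.268, unadjusted p = 0.0139). The ratio of Fads2 to Fads1 was 1.71 ± 0.00753 in young and 1.76 ± 0.0429 in aged libraries (SD, n = 3 each).

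**Figure D2:**
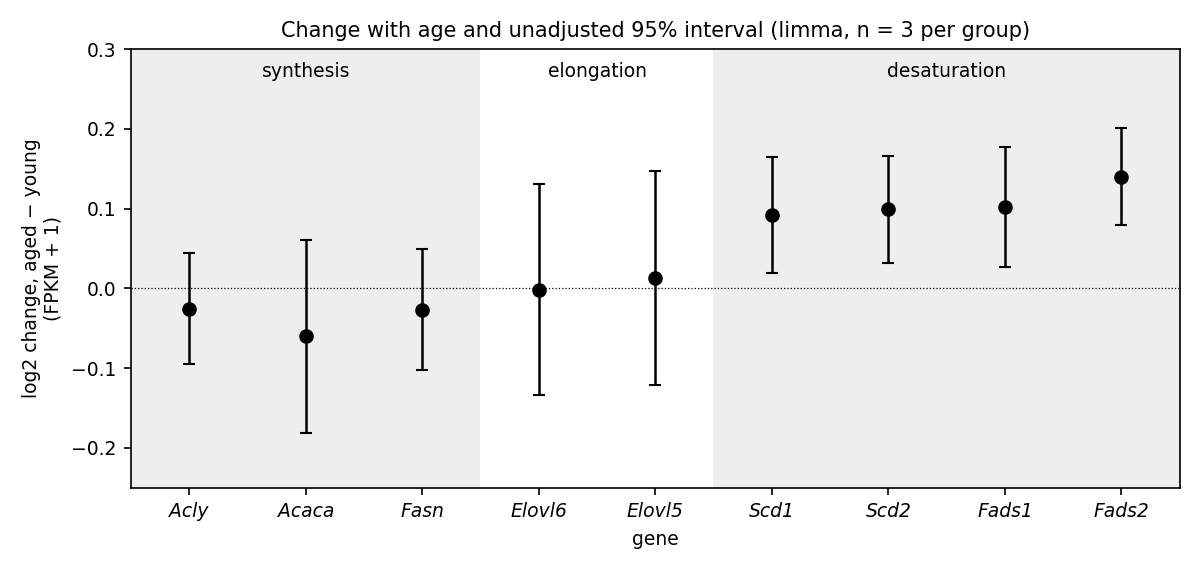
Log2 change of FPKM + 1 from young to aged for each gene (points) with the unadjusted 95% interval of limma, 3 libraries per group, ordered by role. The intervals of the 4 desaturases lie above 0, from 0.020 at the lowest, and those of the other 5 genes include 0, while the adjusted p of all 9 is at least 0.0631.

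Read against the background, groups that did not overlap were frequent in these libraries. They were seen in 17.6% of all tested genes, with 8.98% higher and 8.58% lower in aged libraries, and in 21.4% of the 3626 genes at or above the mean level of Acaca, the lowest of the 9. Among the 9 genes there were 4 higher and 1 lower, with the same 4 genes higher after rescaling to TPM or by median ratios. The median absolute log2 change of all tested genes was 0.070, and 22.8% of them differed by more than Fads2 did. The smallest absolute log2 change among the 86 genes that passed was 0.14.

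Set against the synthase in the same library, the sum of Scd1 and Scd2, Fads2 and Fads1 each stood higher in the aged group. The summed FPKM of Scd1 and Scd2 was 6.18, 6.35 and 6.29 times that of Fasn in young libraries and 6.91, 6.83 and 6.78 times in aged ones. Fads2 was at 1.88, 1.90 and 1.94 times Fasn in young and at 2.17, 2.08 and 2.17 times in aged libraries. For Fads1 this ratio was 1.11 ± 0.0200 and 1.22 ± 0.0352 (SD, n = 3 each). These 3 ratios did not overlap between the ages, whereas that of Fasn to Acaca did (6.02 ± 0.218 and 6.17 ± 0.185, SD, n = 3 each). The ratios are made from the values above and are no further evidence.

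The desaturase genes lie in gene clusters on chromosome 19, which allows a comparison with their neighbours. The Scd cluster spans 204.4 kb, and of its 4 genes Scd3 lay at 0.11 to 0.26 FPKM and Scd4 at 0 to 0.36 FPKM, so Scd2 held 87.3% to 87.7% of the summed FPKM of the family. The microRNA gene Mir5114 lies within the span of Scd2, and whether reads of both can be told apart was not tested. It was at 309.73 to 568.51 FPKM over the 6 libraries, with a log2 change of 0.039 (limma adjusted p = 0.967). In the Fads cluster of 156.0 kb, Fads3, whose product desaturates sphingoid bases, lay between 1.33 and 1.83 FPKM over the 6 libraries. Its groups overlapped, with a log2 change of -0.031 (limma adjusted p = 0.960). Within 100 kb of the Fads cluster, log2 changes were 0.048 for the ferritin heavy chain Fth1 and 0.14 for Rab3il1 (mean 1.23 FPKM). They were 0.019 for Fen1, a nuclease of DNA replication, 0.077 for Tmem258 and -0.11 for the lipase gene Dagla. In this order, the limma adjusted p-values were 0.664, 0.774, 0.923, 0.722 and 0.629. Around the Scd cluster, Chuk, Cwf19l1 and Bloc1s2 had log2 changes of -0.044, 0.19 and -0.0052 (limma adjusted p = 0.910, 0.601 and 0.980). Myrf, Pkd2l1 and Wnt8b had means below 1 FPKM and were not tested. These neighbours were taken by position, after the values had been seen. In the ELOVL family Elovl5 was the most abundant, with 53.0% to 56.6% of the FPKM of Elovl1 to Elovl7. Elovl1 lay at 15.0 to 20.6 FPKM, Elovl4 at 12.1 to 13.7 FPKM and Elovl2 at 9.89 to 13.1 FPKM over the 6 libraries, while Elovl7 reached 1.48 FPKM and Elovl3 0.19 FPKM.

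**Figure D3:**
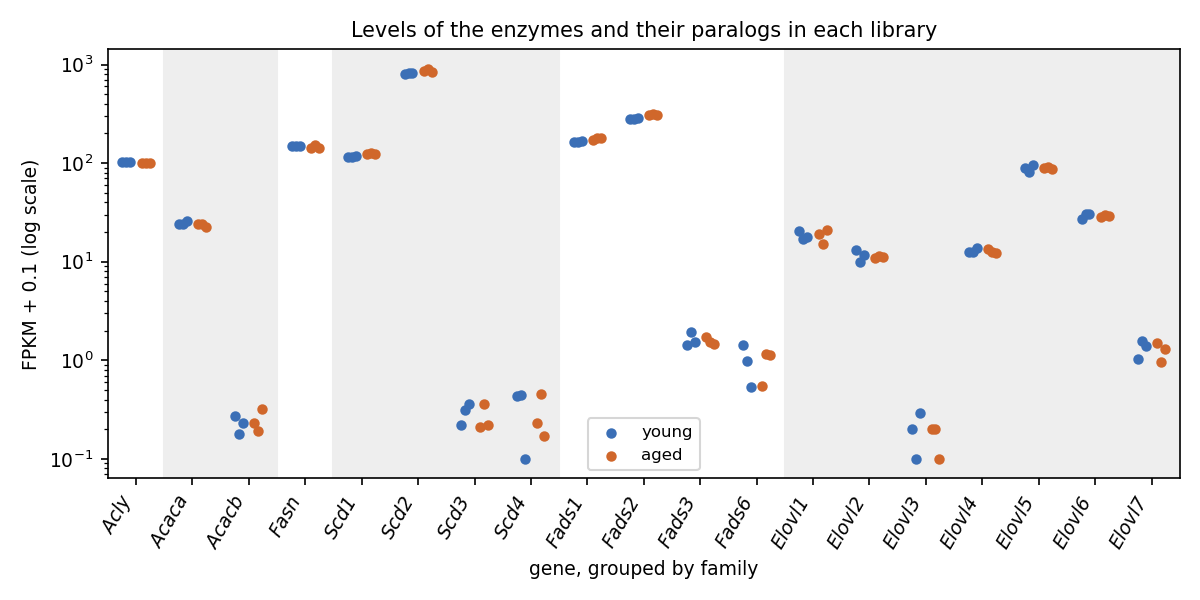
FPKM + 0.1 on a log scale in each young and aged library (points) for the enzymes and their paralogs, grouped by family. Scd2 is the highest of all genes shown, and Acacb, Scd3, Scd4 and Elovl3 stay at 0.36 FPKM or less.

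Promoters are shown for 1 or more genes of each role that held a match to a searched motif: Fasn and Acly of synthesis, Elovl5 of elongation, and Fads2, which had the largest difference between the ages. Of the 9 genes, 6 had an entry in the RefSeq promoter table (build GRCm38.p6, the mm10 assembly), from which the 250 bases before the start listed there were taken, written 5′ to 3′ on the strand of the gene. For Acly, Elovl5, Elovl6 and Fads2 that start is the outer end of the RefSeq gene span. For Fasn it lies 619 bases inside the span and for Acaca 65803 bases inside it, so the windows of these genes precede an internal start, and starts further upstream were not searched. Capitals mark matches, on either strand, to the motifs searched: the sterol regulatory element TCACNCCAC bound by SREBP, the E-box CACGTG, the CCAAT box CCAAT of NF-Y and the GC box GGGCGG of Sp1. The Fasn window is chr11:120824548-120824797 (minus strand), that of Acly chr11:100528001-100528250 (minus strand), that of Elovl5 chr9:77917115-77917364 (plus strand) and that of Fads2 chr19:10101504-10101753 (minus strand).
Fasn: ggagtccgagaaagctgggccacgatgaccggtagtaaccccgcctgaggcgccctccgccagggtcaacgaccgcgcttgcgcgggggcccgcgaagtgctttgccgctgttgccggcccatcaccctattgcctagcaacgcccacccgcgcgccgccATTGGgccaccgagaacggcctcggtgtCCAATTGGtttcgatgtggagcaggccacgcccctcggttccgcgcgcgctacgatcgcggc
Acly: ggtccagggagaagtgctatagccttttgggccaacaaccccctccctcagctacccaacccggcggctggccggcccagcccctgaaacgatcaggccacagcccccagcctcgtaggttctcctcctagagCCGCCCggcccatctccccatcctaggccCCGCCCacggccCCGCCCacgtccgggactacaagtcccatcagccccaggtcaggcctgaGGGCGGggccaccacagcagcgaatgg
Elovl5: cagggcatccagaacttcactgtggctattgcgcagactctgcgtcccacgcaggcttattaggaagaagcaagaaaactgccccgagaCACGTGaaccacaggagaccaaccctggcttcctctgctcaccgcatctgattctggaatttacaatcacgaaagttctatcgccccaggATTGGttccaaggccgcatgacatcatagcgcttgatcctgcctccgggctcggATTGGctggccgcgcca
Fads2: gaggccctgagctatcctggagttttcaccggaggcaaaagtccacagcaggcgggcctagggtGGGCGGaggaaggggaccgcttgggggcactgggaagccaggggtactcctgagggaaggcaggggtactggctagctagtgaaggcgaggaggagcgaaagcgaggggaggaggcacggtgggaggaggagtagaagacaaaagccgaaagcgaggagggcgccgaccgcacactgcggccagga

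In these windows Fasn had 3 CCAAT matches, of which the pair nearest the start overlap on opposite strands, and Acly had 4 GC boxes. Elovl5 had 1 E-box and 2 CCAAT matches, and Fads2 had 1 GC box, at position 65 of the window. The window of Elovl6 and that before the internal start of Acaca held none of the 4 motifs, and the sterol regulatory element as spelled here was in 0 of the 6. Of all 32851 promoters of the table, cut to the same length, 1.05% held this element, 6.02% the E-box, 33.9% the CCAAT box and 32.7% the GC box. The matches are letters in a window and no measure of binding.

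The pathway around the 9 genes was described with 6 lists, 91 genes in all, of which 81 were above 1 FPKM on average. Of these 81, 0 passed limma at an adjusted p under 0.05, where 0.722% of all tested genes did. At an unadjusted p under 0.05, 4 were higher and 4 lower, where 11.9% of all tested genes had such a p in either direction. The median log2 change was 0.0028, beside 0.0027 over all tested genes. Among the regulators (17 tested), Srebf1 was at 126.90 to 130.72 FPKM in the young group, against 132.83 to 143.20 FPKM in the aged group. Its groups did not overlap, with a log2 change of 0.086 ± 0.038 (SE; limma adjusted p = 0.424). Srebf2, the factor of the sterol branch, was at 117.3 ± 1.15 and 116.7 ± 1.83 FPKM (SD, n = 3 each). Scap, the escort protein that carries SREBP to the Golgi apparatus, was lower in all aged libraries, at 57.9 ± 2.48 FPKM in the young group, against 51.2 ± 0.280 FPKM in the aged group (SD, n = 3 each; limma adjusted p = 0.146). Insig1, which holds SREBP back in the endoplasmic reticulum, was at 138.0 and 142.4 FPKM. Groups without overlap were 2 higher and 2 lower among the regulators, beside 8.98% and 8.58% of all tested genes.

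Thrsp and Mid1ip1 encode a related pair of small proteins, of which Mid1ip1 activates acetyl-CoA carboxylase and Thrsp, also called Spot14, is known from quiescent and slowly dividing neural stem cells. Mid1ip1 was at 141.22 to 146.52 FPKM in the young group, against 150.88 to 154.49 FPKM in the aged group, which did not overlap (log2 change 0.083 ± 0.030 SE, limma adjusted p = 0.322). Thrsp was at 39.92 to 42.61 FPKM in the young group, against 37.44 to 45.39 FPKM in the aged group, where the aged values lay on both sides of the young ones. The carbohydrate-sensing factor Mlxipl stayed at 0.10 FPKM or less.

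Mlycd, which degrades malonyl-CoA, was at 13.8 ± 0.767 FPKM in the young group, against 15.5 ± 0.374 FPKM in the aged group (SD, n = 3 each), with no overlap (limma adjusted p = 0.360). It belongs to the list of precursor and NADPH supply (11 tested, 1 higher at an unadjusted p under 0.05, median log2 change 0.038). The citrate carrier Slc25a1 was at 40.4 and 43.7 FPKM, the cytosolic malate dehydrogenase Mdh1 at 147.2 and 155.7 FPKM and the acetyl-CoA synthetase Acss2 at 18.9 and 20.2 FPKM, and all 3 overlapped between the ages. Of the other elongases, desaturases and enzymes of the elongation cycle (12 tested, median -0.019), Tecr, the reductase of the last step of the cycle, was higher in all aged libraries, at 258.4 ± 5.37 and 275.2 ± 8.82 FPKM (SD, n = 3 each; limma adjusted p = 0.322). The dehydratases Hacd1 and Hacd3 were at 45.2 and 48.0 FPKM and at 58.0 and 60.2 FPKM, and Elovl2 at 11.5 and 11.1 FPKM.

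Downstream of synthesis, the genes of activation and esterification (18 tested, median -0.025) held 0 higher and 3 lower at an unadjusted p under 0.05. Of all 11912 tested genes, 751 were higher and 661 lower at such a p. Acsbg1, an acyl-CoA synthetase of brain, was at 253.2 ± 2.85 FPKM in the young group, against 239.0 ± 7.50 FPKM in the aged group (SD, n = 3 each; limma adjusted p = 0.343). Pnpla2, the triglyceride lipase ATGL, was at 11.6 and 9.82 FPKM and the phosphatidate phosphatase Lpin3 at 3.70 and 2.99 FPKM, with limma adjusted p-values of 0.322 and 0.420. The aged values of all 3 genes lay below the young ones. Groups without overlap were 4 lower and 1 higher in this list, beside 8.58% and 8.98% of all tested genes. The higher one was Dgat2, at 8.85 and 10.2 FPKM (limma adjusted p = 0.422). Of the fatty acid binding and uptake genes (8 tested, median 0.0046), none had an unadjusted p under 0.05. Fabp7, the fatty acid binding protein of radial glia, was at 2734 ± 63.1 and 2747 ± 114 FPKM (SD, n = 3 each), Fabp5 at 404.2 and 386.7 FPKM, Fabp3 at 2.93 and 2.03 FPKM and Scp2 at 27.8 and 28.7 FPKM.

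The sterol branch shares SREBP control with the 9 genes, and 15 of its 16 listed genes were tested (median 0.014). Fdft1, squalene synthase, was at 43.8 ± 1.59 FPKM in the young group, against 48.6 ± 1.65 FPKM in the aged group (SD, n = 3 each), with no overlap (limma adjusted p = 0.251). The demethylase Cyp51 was at 71.0 and 74.4 FPKM and the isomerase Idi1 at 76.1 and 72.1 FPKM. Groups without overlap were 3 higher and 0 lower in this list, beside 8.98% and 8.58% of all tested genes. The higher ones were Fdft1, Cyp51 and Hmgcs1, the last at 296.8 and 300.9 FPKM (limma adjusted p = 0.836).

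**Figure D4:**
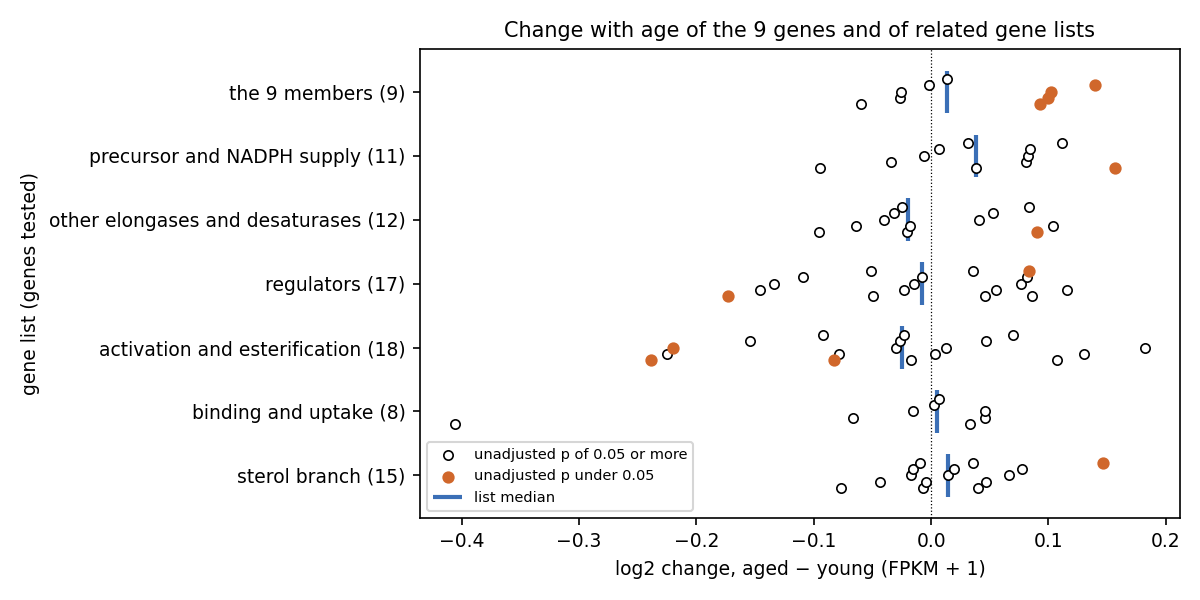
Log2 change of FPKM + 1 from young to aged for the 9 genes and the tested genes of 6 related lists (points, 3 libraries per group), filled where the unadjusted limma p is under 0.05, with the list median as a bar. The 4 filled points of the 9 genes are the desaturases, and the list medians lie between -0.025 and 0.038.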

How the data were processed

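Bulk RNA sequencing of 6 libraries, 3 young and 3 aged, was used. Each gene has 1 FPKM value per library, computed by the authors and rounded to 2 decimals (the unit is given per the file headers). The submitters' processing notes name TopHat, Cuffdiff and the build mm10. Versions, annotation, strand setting, filters and scaling between libraries are not given in the sources used here. Samples were grouped by their titles.

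Of 17006 genes, 16962 matched a RefSeq table of GRCm38.p6 by Entrez identifier, which gave the coordinates, counted from 1. FPKM are not counts, so limma 3.58.1 in R 4.3.3 (lmFit, eBayes with a trend, no covariates, two-sided) was run on log2(FPKM + 1). It took the 11912 genes whose mean reached 1 FPKM, adjusted by Benjamini-Hochberg, and called an adjusted p under 0.05. The scale understates changes of low genes. Depth was estimated from read steps in low values, with transcript lengths of GENCODE M21, and is approximate, as are intervals and sampling errors built on it, which cover counting error only. Shared sequence was searched in windows of 50 bases of these transcripts. The fit was tested on simulated data with larger changes than those of the 9 genes. That simulation does not show whether changes as small as theirs would be found. All 9 genes were named, with up to 3 genes of each related list by smallest adjusted p and 11 fixed genes. Some genes of the related and marker lists are not reported here and were left out of list counts and sums. Genes and lists were chosen with earlier results of these data known. Tables and figures used Python 3.11.15, pandas 2.3.3, numpy 2.4.6, scipy 1.17.1 and matplotlib 3.10.9.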

Additional observations from a re-analysis of the deposited data

How the results depend on the processing

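In 16 other fits (pseudocount, filter, scaling, limma options, replicate block, each library left out) 0 of the 9 genes and 0 of the 6 related lists' genes passed an adjusted p of 0.05. At a threshold of 0.10, 1 of the 9 passed, Fads2. The desaturases, Acly, Acaca and Fasn kept their direction in all 16 fits (Fads2 from 0.12 to 0.15, Fads1 from 0.088 to 0.12, Scd1 from 0.079 to 0.11, Scd2 from 0.040 to 0.12). The number of genes called over the whole table was 86, and it was 11 without limma's trend, 22 with the replicate number as a block, 39 to 63 with 1 library left out, 19 at a threshold of 0.01 and 190 at 0.10; the causes were not tested. The block did not rest on a pairing: same-numbered libraries had deviations correlated at 0.0080, -0.072 and 0.11, and 2 of 6 libraries were closest to their own number.

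The median of the 9 genes ran from -0.00021 to 0.066 with 1 library left out, the highest value without young library 3. Genes near 0 changed sign. After rescaling to TPM the log2 change was -0.00039 for Elovl5 and -0.0074 for Fabp7, and after quantile normalization -0.0042 for Elovl5. With 1 library left out, values ran from -0.054 to 0.066 for Elovl5, -0.056 to 0.026 for Elovl6, -0.14 to 0.050 for Elovl2, -0.089 to 0.051 for Fads3, -0.028 to 0.027 for Fabp7, -0.020 to 0.0025 for Srebf2 and -0.016 to 0.12 for Thrsp. In an alternative added after seeing the data, the genes with groups that did not overlap were 4 higher and 0 lower after rescaling to TPM, which left out Acly, and 3 higher and 1 lower after quantile normalization, which left out Scd2. Depth limits single genes to a sampling error of 0.639% (Scd2) to 3.28% (Elovl6).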
